A study of Homo sapiens with 12 samples.

Results

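The drug efflux pumps of the ATP-binding cassette (ABC) superfamily were followed here in differentiated Caco-2 cells, a human colon carcinoma line whose confluent layers take on features of small intestinal absorptive cells. The genes were ABCB1, ABCC1, ABCC2, ABCC3, ABCC4, ABCC5, ABCC6 and ABCG2. A probe set was taken as a member when the platform annotation gave it exactly 1 gene symbol and that symbol was among these 8 genes. This gave 18 of the 54675 probe sets on the array, which covered 7 of the 8 genes (of 19775 genes with such a probe set), and ABCC6 was not analysed here. ABCC3 had 5 probe sets, ABCC4 had 4, ABCC5 had 3, ABCB1 and ABCC1 had 2 each, and ABCC2 and ABCG2 had 1 each.

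Total RNA of 12 samples was labelled and measured on 1 Affymetrix expression array each, with 3 arrays in each of 4 groups. All cells were at passage 22, were kept for 21 days after confluence in medium with 10% fetal calf serum, and were then held for 24 h in DMEM whose listed supplements were antibiotics and 1% ITS (insulin, transferrin and selenium). The medium control arrays received nothing further. The treated groups received silver nanoparticles coated with surfactant (AgPURE) at 2.5 µg/mL or at 25 µg/mL, or silver ions as AgNO3 at 0.5 µg/mL. No group received the surfactant alone, and the particle and ion doses differ, so the silver forms were not compared at a matched dose. Whether the arrays within a group stem from independent cultures is not stated in the labels. The p-values therefore reflect the scatter among arrays, part or all of which could be technical.

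ABC efflux pumps use ATP to move drugs, dyes and conjugated metabolites out of cells, and in the intestine they limit what is absorbed from the lumen. The pumps of the apical, lumen-facing membrane are ABCB1 (P-glycoprotein, which carries bulky hydrophobic drugs), ABCC2 (MRP2, which carries glutathione and glucuronide conjugates) and ABCG2 (BCRP, a half-size pump that works as an assembly of several copies and carries sulfate conjugates and many anticancer drugs). The pumps mostly placed on the basolateral, blood-facing membrane of enterocytes include ABCC1 (MRP1, a glutathione conjugate pump) and ABCC3 (MRP3, a glucuronide and bile acid pump), while ABCC4 (MRP4) and ABCC5 (MRP5) carry cyclic nucleotides and nucleotide analogues and are found on different membranes in different cells.

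The stretch just before the transcription start is shown for the 3 apical pumps. They were chosen because they moved in opposite directions at the high particle dose in the authors' normalization. Of these genes, only ABCB1 also passed the test when arrays were scaled on control probe sets (values below). The sequences are 250 bases from RefSeq on GRCh38.p14, written 5′ to 3′ on the gene's strand and ending at the base before an annotated start. Windows were found for 6 of the 8 genes. Capitals mark matches on either strand to the xenobiotic response core GCGTG, the heat shock element core GAANNTTC, the metal response core TGCACNC or TGCGCNC, or the CCAAT box. For ABCB1 and ABCG2, which have 2 and 5 listed starts, 1 start is shown. It is the most upstream of those within 1000 bases of the start nearest the gene body.
ABCB1, chr7:87600885-87601134, minus strand: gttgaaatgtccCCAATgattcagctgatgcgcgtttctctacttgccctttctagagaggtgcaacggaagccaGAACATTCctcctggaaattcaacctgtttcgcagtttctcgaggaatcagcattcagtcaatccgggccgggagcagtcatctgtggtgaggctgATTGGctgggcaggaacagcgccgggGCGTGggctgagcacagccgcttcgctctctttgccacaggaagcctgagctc
ABCC2, chr10:99782390-99782639, plus strand: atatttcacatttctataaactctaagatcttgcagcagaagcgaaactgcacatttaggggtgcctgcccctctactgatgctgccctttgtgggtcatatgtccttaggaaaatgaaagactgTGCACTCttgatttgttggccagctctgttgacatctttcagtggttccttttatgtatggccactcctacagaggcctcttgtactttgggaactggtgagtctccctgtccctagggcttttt
ABCG2, chr4:88159291-88159540, minus strand: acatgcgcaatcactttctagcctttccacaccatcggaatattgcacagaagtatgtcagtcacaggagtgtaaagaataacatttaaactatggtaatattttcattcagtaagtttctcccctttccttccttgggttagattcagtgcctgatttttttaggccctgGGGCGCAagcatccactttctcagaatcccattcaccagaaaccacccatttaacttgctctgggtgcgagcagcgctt

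The ABCB1 window held CCAAT boxes whose first base lay 238 and 79 bases before the start, a heat shock element core at 175 and a xenobiotic response core at 53. The ABCC2 window held 1 metal response core at 125, and the ABCG2 window held 1 at 79. Of 35116 RefSeq windows of the same length, 32% held CCAAT, 5.78% the heat shock element core, 32.2% the xenobiotic response core and 24.8% the metal response core, so all but the heat shock core are common strings. The antioxidant response core TGACNNNGC, present in 10.9% of windows, had no match in any listed window of these 3 genes. The GC box GGGCGG, present in 42.6% of windows, had no match in the 3 windows shown. Of the other ABCG2 windows, those at 88158860-88159109 and 88158910-88159159 each held 2 GC boxes. Those 2 windows and that at 88158640-88158889, all downstream of the window shown, each held 2 xenobiotic response cores. The first 2 overlap, and their matches are the same stretches counted in both. These matches describe letters only. No binding was measured.

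At 25 µg/mL the pumps separated into genes that read higher and genes that read lower than in medium. ABCG2, ABCC1 and ABCC2 were higher by 0.47 to 0.74 on the log2 scale. ABCB1, 4 of the 5 ABCC3 probe sets and 3 of the 4 ABCC4 probe sets were lower, by values between -0.99 and -0.47. In all, 13 of 18 probe sets passed limma's moderated test at a Benjamini-Hochberg adjusted p under 0.05 (4 higher, 9 lower), against 25.9% of all 54613 probe sets tested, of which 12.5% were higher and 13.4% lower. Dim probe sets lower that share. When those with a mean under 4.75 were left out, 13 of 17 members passed, against 48.4% of all 27241 probe sets. The members' median change was -0.32, against 0.01 over all probe sets. Its sign depends on the several probe sets of ABCC3 and ABCC4. With 1 probe set a gene the members' median was 0.25, against -0.01 over all genes. In 15 of the 18 probe sets the 3 arrays at 25 µg/mL did not overlap the 3 medium arrays, against 39% of all probe sets. Probe sets of 1 gene share their transcript and are not independent. The 4 higher values rest on the authors' normalization, which holds the mean of each array equal, and none of them passed the test when arrays were scaled on control probe sets instead (values below).

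**Figure D1:**
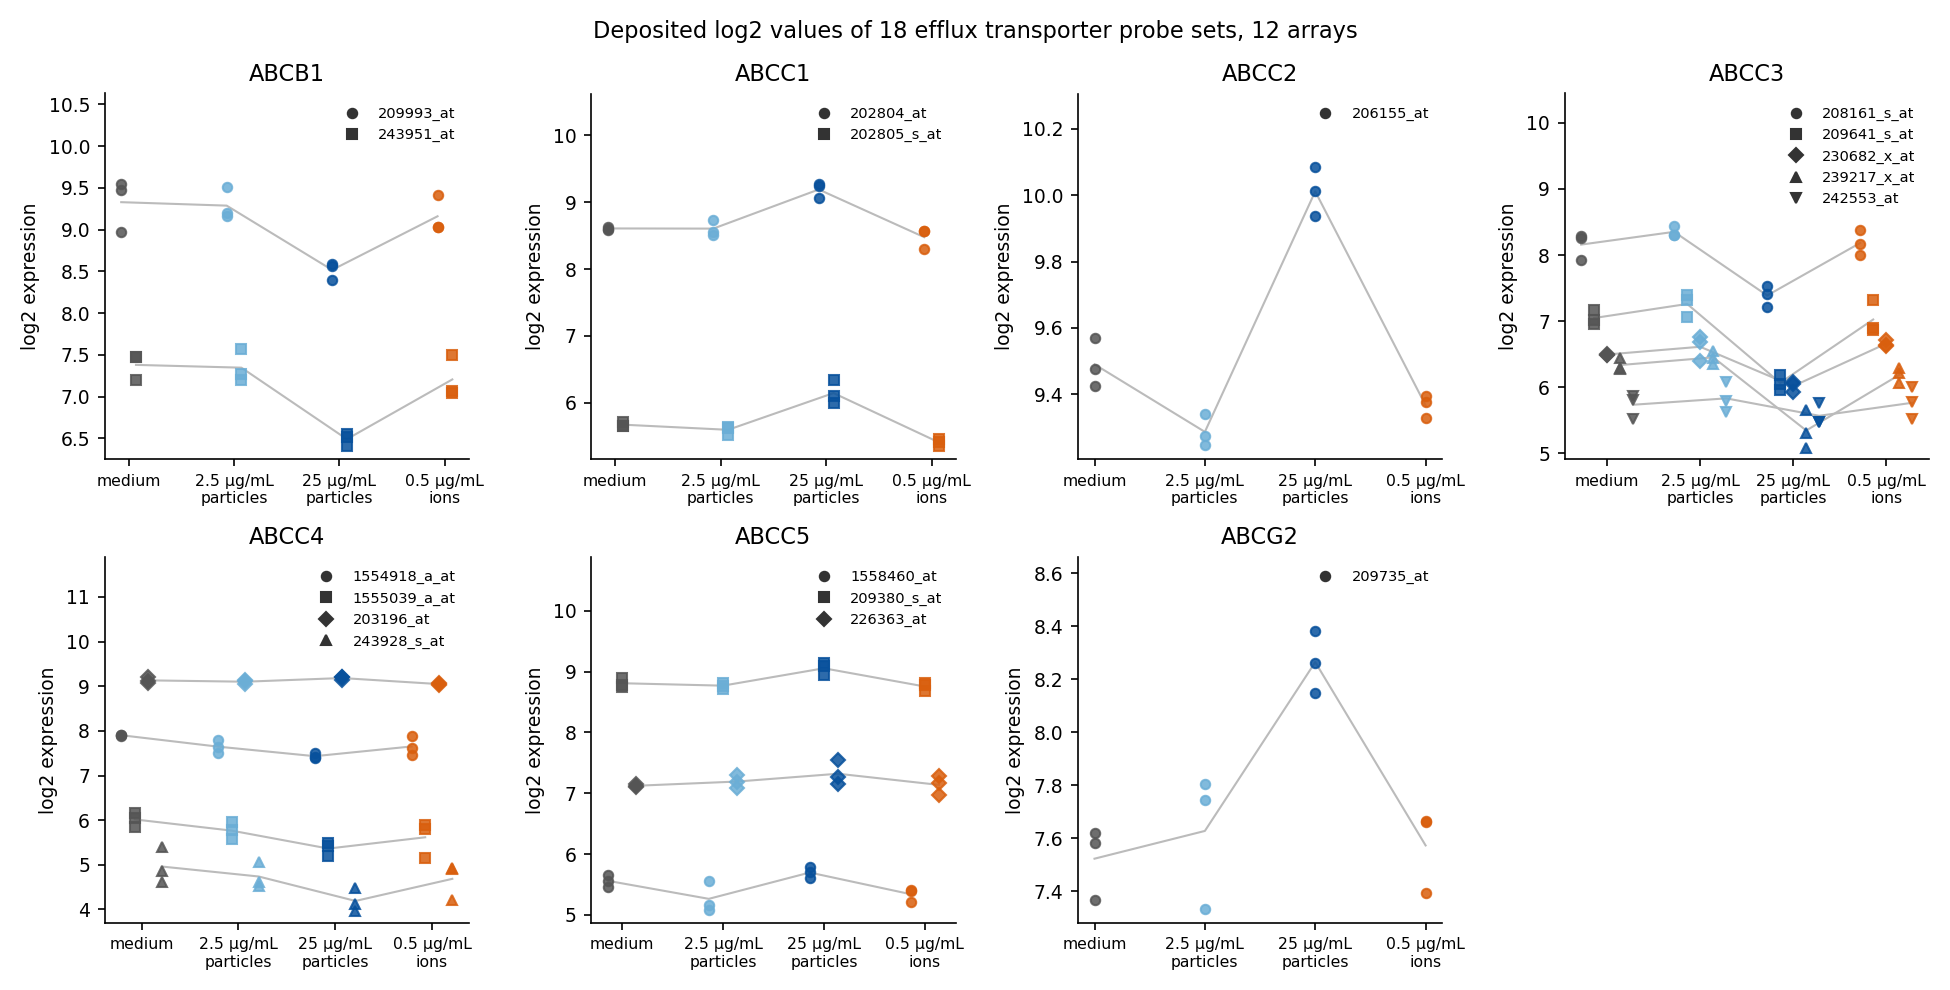
Deposited log2 values (vertical axis, 1 panel a gene, scales differ) of the 18 probe sets on each of the 12 arrays. Points are single arrays, marker shapes are probe sets and grey lines join group means. The 3 arrays at 25 µg/mL lie below all others for ABCB1 and above all others for ABCC1, ABCC2 and ABCG2 in the authors' normalization, while the other 3 groups overlap or lie close together.

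ABCB1, the apical P-glycoprotein pump, was lower at 25 µg/mL with both of its probe sets. Probe set 209993_at read 8.97, 9.47 and 9.54 in medium, 9.16, 9.51 and 9.20 at 2.5 µg/mL, 8.40, 8.59 and 8.56 after 25 µg/mL, and 9.04, 9.42 and 9.03 with ions. The 3 arrays at 25 µg/mL were the lowest of all 12, and medium replicate 1 was the lowest of its group. The change against medium was -0.81 ± 0.15 (SE, n = 3 arrays a group), a 1.76-fold lower value (limma, adjusted p = 0.000782). Probe set 243951_at read 7.20, 7.48 and 7.47 in medium and 6.55, 6.52 and 6.41 at 25 µg/mL, also without overlap. Its change was -0.89 ± 0.13 (limma, adjusted p = 0.000122). By group mean, 209993_at ran from medium (9.33 ± 0.31, SD, n = 3) through 2.5 µg/mL (9.29 ± 0.19) and ions (9.16 ± 0.22) down to 25 µg/mL (8.52 ± 0.10). The first 3 groups overlapped, and only the step from ions to 25 µg/mL passed the test (-0.64 ± 0.15, limma, adjusted p = 0.00491).

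ABCC2, the apical conjugate pump MRP2, was higher at 25 µg/mL in the authors' normalization. Its probe set, 206155_at, read 9.57, 9.43 and 9.47 in medium, 9.27, 9.25 and 9.34 at 2.5 µg/mL, 10.09, 10.01 and 9.94 after 25 µg/mL, and 9.33, 9.38 and 9.40 with ions. All 3 arrays at 25 µg/mL lay above the other 9, and all 6 arrays at 2.5 µg/mL or with ions lay below the 3 medium arrays. The change against medium at 25 µg/mL was 0.52 ± 0.09 (1.43-fold, limma, adjusted p = 0.000273). The lower values at 2.5 µg/mL (-0.20 ± 0.09) and with ions (-0.12 ± 0.09) did not pass it, with limma adjusted p of 0.999 and 0.829. By group mean the order was 25 µg/mL (10.01 ± 0.07, SD, n = 3), medium (9.49 ± 0.07), ions (9.37 ± 0.04) and 2.5 µg/mL (9.29 ± 0.05), and the last 3 did not differ by the test.

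ABCG2, the apical pump BCRP, had the largest rise among the members at 25 µg/mL in the authors' normalization. Probe set 209735_at read 7.62, 7.58 and 7.37 in medium, 7.75, 7.33 and 7.80 at 2.5 µg/mL, 8.38, 8.26 and 8.15 after 25 µg/mL, and 7.67, 7.39 and 7.66 with ions. The 3 arrays at 25 µg/mL were the highest of all 12, and the other 3 groups overlapped each other. The change against medium was 0.74 ± 0.13 (1.67-fold, limma, adjusted p = 0.000449). The group means in order were 8.26 ± 0.12 (SD, n = 3) at 25 µg/mL, 7.63 ± 0.26 at 2.5 µg/mL, 7.57 ± 0.16 with ions and 7.52 ± 0.14 in medium. Only the step from 25 to 2.5 µg/mL passed the test (0.64 ± 0.13, limma, adjusted p = 0.00153).

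ABCC1, the glutathione conjugate pump MRP1, was higher at 25 µg/mL with both probe sets in the authors' normalization. Probe set 202804_at read 8.61, 8.59 and 8.63 in medium, 8.56, 8.51 and 8.74 at 2.5 µg/mL, 9.25, 9.27 and 9.06 after 25 µg/mL, and 8.29, 8.57 and 8.56 with ions. The arrays at 25 µg/mL were the 3 highest. Against medium the change was 0.58 ± 0.10 (limma, adjusted p = 0.000526). Probe set 202805_s_at averaged 5.67 ± 0.03 (SD, n = 3) in medium and 6.14 ± 0.17 at 25 µg/mL, without overlap, a change of 0.47 ± 0.10 (limma, adjusted p = 0.00169). With ions, 202805_s_at read 5.41, 5.46 and 5.35, below every medium array, and its change of -0.27 ± 0.10 did not pass the test (limma, adjusted p = 0.706).

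ABCC3, the basolateral glucuronide pump MRP3, was lower at 25 µg/mL with 4 of its 5 probe sets. The brightest, 208161_s_at, read 7.93, 8.29 and 8.25 in medium, 8.31, 8.30 and 8.44 at 2.5 µg/mL, and 7.21, 7.54 and 7.41 after 25 µg/mL, with a mean of 8.18 ± 0.19 (SD, n = 3) for ions. Its 3 arrays at 25 µg/mL were the lowest of all 12, and the change against medium was -0.77 ± 0.13 (1.71-fold lower, limma, adjusted p = 0.000253). The largest fall among all members was that of 239217_x_at, which read 6.28, 6.30 and 6.44 in medium and 5.08, 5.31 and 5.65 at 25 µg/mL. Its change was -0.99 ± 0.13 (1.99-fold lower, limma, adjusted p = 2.79e-05). Probe sets 209641_s_at and 230682_x_at changed by -0.98 and -0.48, with limma adjusted p of 3.53e-05 and 0.00201, and neither overlapped medium. The fifth probe set, 242553_at, read 5.52, 5.88 and 5.81 in medium and 5.77, 5.47 and 5.47 at 25 µg/mL. Those groups overlapped, and the change of -0.17 (95% interval -0.48 to 0.14) did not pass the test (limma, adjusted p = 0.474). Against 2.5 µg/mL, where 208161_s_at was highest by group mean (8.35 ± 0.08, SD, n = 3), the change was -0.96 ± 0.13 (limma, adjusted p = 3.35e-05). Medium, 2.5 µg/mL and ions did not differ by the test in any ABCC3 probe set.

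The 4 probe sets of ABCC4, the cyclic nucleotide pump MRP4, disagreed. The brightest, 203196_at, read 9.06, 9.21 and 9.12 in medium, 9.12, 9.05 and 9.13 at 2.5 µg/mL, 9.21, 9.14 and 9.20 after 25 µg/mL, and 9.08, 9.04 and 9.03 with ions. All its groups overlapped medium, and the change at 25 µg/mL was 0.05 (95% interval -0.12 to 0.23, limma, adjusted p = 0.724). Probe set 1554918_a_at read 7.90, 7.89 and 7.92 in medium and 7.51, 7.41 and 7.39 at 25 µg/mL, without overlap, a change of -0.47 ± 0.11 (limma, adjusted p = 0.00468). Probe set 1555039_a_at changed by -0.65 ± 0.16 (limma, adjusted p = 0.00718). The dimmest, 243928_s_at, with a mean level at the 48th percentile of all probe sets, read 4.62, 4.87 and 5.39 in medium and 4.48, 3.96 and 4.13 at 25 µg/mL. Its change of -0.77 ± 0.22 (limma, adjusted p = 0.0153) did not pass without medium replicate 3 (-0.56, adjusted p = 0.091), without replicate 2 at 25 µg/mL (-0.66, adjusted p = 0.07) or without replicate 3 at 25 µg/mL (-0.74, adjusted p = 0.0507). Between 25 and 2.5 µg/mL no ABCC4 probe set passed the test (1554918_a_at stood at -0.21), and none did between 25 µg/mL and ions. That absence was not stable. Without ion replicate 1, 1555039_a_at stood at -0.48 against ions (limma, adjusted p = 0.014) and 243928_s_at at -0.74 (adjusted p = 0.0179), both called lower. Against 2.5 µg/mL both passed when only these groups were fitted (limma, adjusted p = 0.0275 and 0.0226). Under either control scaling these and 1554918_a_at were called lower in both comparisons, as were many of all probe sets. With poly-A scaling 83.4% of all probe sets were lower against 2.5 µg/mL and 85.8% against ions. With hybridization scaling the shares were 37.1% and 64.9%. In the ion and low-dose groups 1554918_a_at read -0.25 and -0.26 against medium without passing the test (limma, adjusted p = 0.738 and 0.999).

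ABCC5, the nucleotide analogue pump MRP5, did not pass the test against medium with any of its 3 probe sets. The brightest, 209380_s_at, read 8.89, 8.79 and 8.75 in medium, 8.77, 8.82 and 8.72 at 2.5 µg/mL, 9.14, 9.08 and 8.94 after 25 µg/mL, and 8.67, 8.77 and 8.81 with ions. The arrays at 25 µg/mL lay above all others, and the change of 0.25 ± 0.09 had a limma adjusted p of 0.0574. It fell under the threshold without replicate 3 at 25 µg/mL (0.30, adjusted p = 0.0398) and under 5 of the other settings tried. The same probe set passed against 2.5 µg/mL (0.29 ± 0.09, limma, adjusted p = 0.0278) and against ions (0.30 ± 0.09, adjusted p = 0.0225). These calls lay near the threshold. The first passed in 2 of the 6 fits that left out 1 array (without replicate 2 at 2.5 µg/mL or replicate 3 at 25 µg/mL). The second passed in 3 of 6 (lost without replicate 1 or 2 at 25 µg/mL or ion replicate 1). Limma adjusted p reached 0.107 and 0.0881, while the changes stayed at 0.24 to 0.34 and 0.26 to 0.36. Under scaling on the poly-A or hybridization controls 209380_s_at stood below medium, at -0.37 and -0.18 (adjusted p = 0.152 and 0.308). Probe set 1558460_at read 5.66, 5.57 and 5.46 in medium and 5.79, 5.70 and 5.60 at 25 µg/mL, which overlap. It was higher than at 2.5 µg/mL (0.43 ± 0.12, limma, adjusted p = 0.014) and than with ions (0.36 ± 0.12, adjusted p = 0.0418). With 1 array left out in turn, the first call was lost without replicate 1 or 3 at 2.5 µg/mL or replicate 1 at 25 µg/mL (adjusted p up to 0.077), and the call against ions was lost without any 1 of the 6 arrays (0.0506 to 0.136). The third, 226363_at, changed by 0.20 against medium (95% interval -0.04 to 0.44, limma, adjusted p = 0.245).

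**Figure D2:**
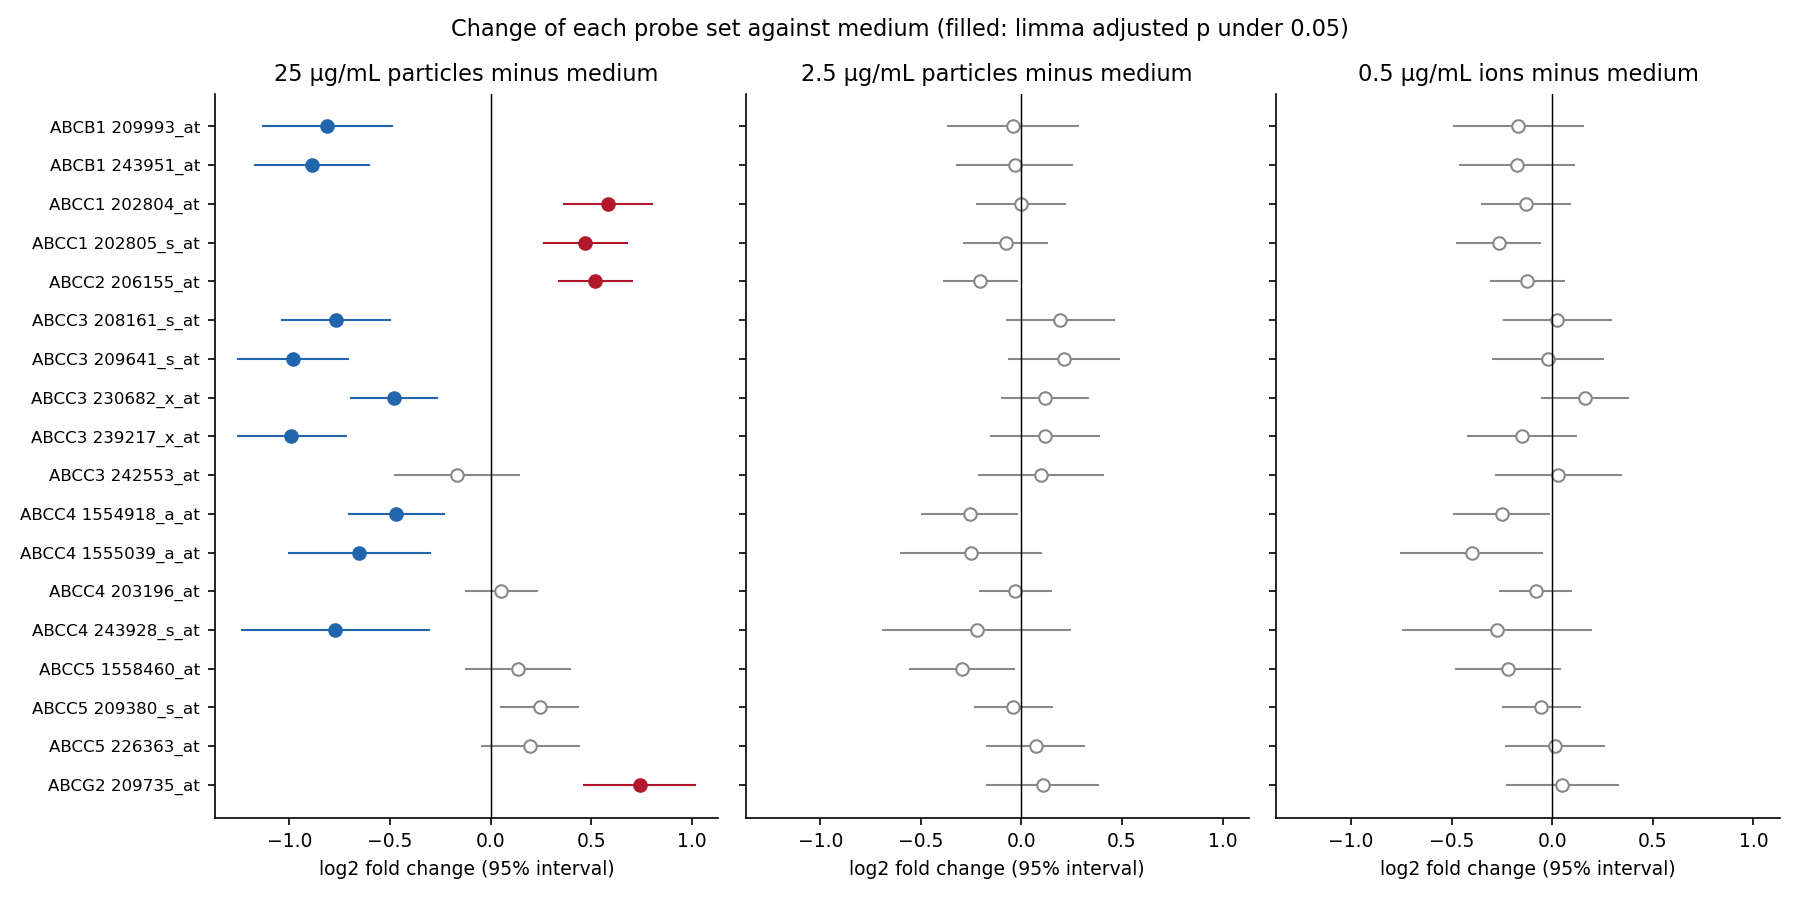
Log2 fold change against medium (horizontal axis) of each of the 18 probe sets at 25 µg/mL, at 2.5 µg/mL and with ions, with 95% intervals from limma. Filled points had an adjusted p under 0.05 (blue lower, red higher in the authors' normalization). The 13 filled points are all in the 25 µg/mL panel, and the 4 red ones did not pass the test under scaling on control probe sets.

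At 2.5 µg/mL no member probe set passed the test, and neither did any of the 54613 probe sets (0% called by limma). At an unadjusted p under 0.05 there were 3 members and 2365 probe sets, 4.33% of those tested. The members' changes ran from -0.30 for ABCC5 1558460_at to 0.21 for ABCC3 209641_s_at, and their 95% intervals lay within -0.69 and 0.49. The 3 members under the unadjusted threshold all read lower: ABCC2 206155_at at -0.20, ABCC4 1554918_a_at at -0.26 and ABCC5 1558460_at at -0.30. The arrays of 4 members did not overlap medium, against 9.89% of all probe sets.

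Silver ions at 0.5 µg/mL likewise gave no member that passed the test, against 0.00183% of all probe sets (1, which was lower). At an unadjusted p under 0.05 limma gave 3 members and 3659 probe sets, 6.7% of those tested. The members' changes ran from -0.40 for ABCC4 1555039_a_at to 0.16 for ABCC3 230682_x_at, and their 95% intervals lay within -0.75 and 0.38. The 3 under the unadjusted threshold were ABCC1 202805_s_at (-0.27), ABCC4 1554918_a_at (-0.25) and ABCC4 1555039_a_at (-0.40). In 6 members the ion arrays did not overlap medium, against 11% of all probe sets. All 3 comparisons with medium use the same 3 medium arrays, so their values are not independent of each other.

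The high dose was also set against the other treated groups. These differences do not use the medium means, but their SE and p-values draw on a spread shared by all 4 groups. They use the same 3 arrays at 25 µg/mL as the comparison with medium, so they are not independent of it. Against 2.5 µg/mL, 12 of 18 members passed (6 higher, 6 lower), where 26% of all probe sets did (12.1% higher, 13.9% lower). Against ions, 12 passed (6 higher, 6 lower), where 24.8% of all probe sets did (12.7% higher, 12.1% lower). Without dim probe sets (mean under 4.75), 12 of 17 members passed in each comparison, where 48.5% and 46.4% of all probe sets did. None of the higher calls was kept in either comparison when arrays were scaled on the control probe sets. Poly-A scaling gave 0 higher and 12 lower members against 2.5 µg/mL and 0 higher and 13 lower against ions, where 83.4% and 85.8% of all probe sets were lower. Hybridization scaling gave 0 higher and 10 lower in each, where 37.1% and 64.9% were lower. The changes that follow are in the authors' normalization. ABCC2 rose by 0.72 ± 0.09 against 2.5 µg/mL (limma, adjusted p = 1.36e-05) and by 0.64 ± 0.09 against ions (adjusted p = 4.47e-05). ABCC1 202804_at rose by 0.59 ± 0.10 and 0.71 ± 0.10, with limma adjusted p of 0.000497 and 9.97e-05. ABCG2 rose by 0.69 ± 0.13 against ions (limma, adjusted p = 0.000864). ABCB1 209993_at changed by -0.77 ± 0.15 against 2.5 µg/mL (limma, adjusted p = 0.00118), and ABCC3 208161_s_at by -0.80 ± 0.13 against ions (adjusted p = 0.000213). The 6 higher were the 4 probe sets of ABCC1, ABCC2 and ABCG2 with ABCC5 209380_s_at and 1558460_at. The 6 lower were both ABCB1 probe sets and the 4 ABCC3 probe sets that were lower against medium. Between 2.5 µg/mL and ions no member and no probe set passed (0%), and limma gave 0 members and 7.85% of all probe sets at an unadjusted p under 0.05.

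The array's own control probe sets moved with the high dose. The 24 poly-A controls, bacterial transcripts spiked into the RNA before labelling, averaged 5.31, 5.54 and 5.39 on the medium arrays and 6.21, 5.56 and 6.31 at 25 µg/mL. The 18 hybridization controls, added after labelling, averaged 10.57, 10.43 and 10.66 in medium and 10.97, 10.89 and 11.07 at 25 µg/mL. Both were higher on all 3 arrays at 25 µg/mL than on every medium array, by 0.613 and 0.427 on the log2 scale (exact two-sided permutation p = 0.1, the smallest that 3 against 3 arrays allow). Replicate 2 at 25 µg/mL was above medium by little in the poly-A controls. The poly-A averages lay much nearer the array medians (4.72 to 4.79) than the hybridization averages did, so the poly-A scaling rests on weaker signal. The part of these controls in the members' values was not tested beyond the rescaling that follows.

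When arrays were scaled on the poly-A controls, 0 members were higher and 11 lower against medium, and over all probe sets 501 were higher and 36144 lower, with the median of all probe sets at -0.60. Scaling on the hybridization controls gave 0 higher and 11 lower members, 1412 higher and 32263 lower probe sets and a median of -0.42. Under the poly-A scaling the sign turned for ABCC1 202804_at (-0.03), ABCC1 202805_s_at (-0.14) and ABCC2 (-0.09), and ABCG2 stood at 0.13 (limma, adjusted p = 0.618). Under the hybridization scaling those 4 stood at 0.16, 0.05, 0.10 and 0.32, and none passed (for ABCG2, adjusted p = 0.0954). The 9 lower calls passed under both: ABCB1 209993_at stood at -1.42 and -1.24 and ABCC3 208161_s_at at -1.38 and -1.20. ABCC4 203196_at (-0.56 and -0.37) and ABCC3 242553_at (-0.78 and -0.59) joined the lower calls. The same amount was taken from every probe set of an array. By construction, distances from the shifted median therefore repeat those of the authors' normalization and add no support to them. With poly-A scaling ABCG2 was 0.73 above that median, ABCC1 202804_at 0.58, ABCC2 0.51 and ABCC4 203196_at 0.04, while ABCB1 209993_at was at -0.82.

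**Figure D3:**
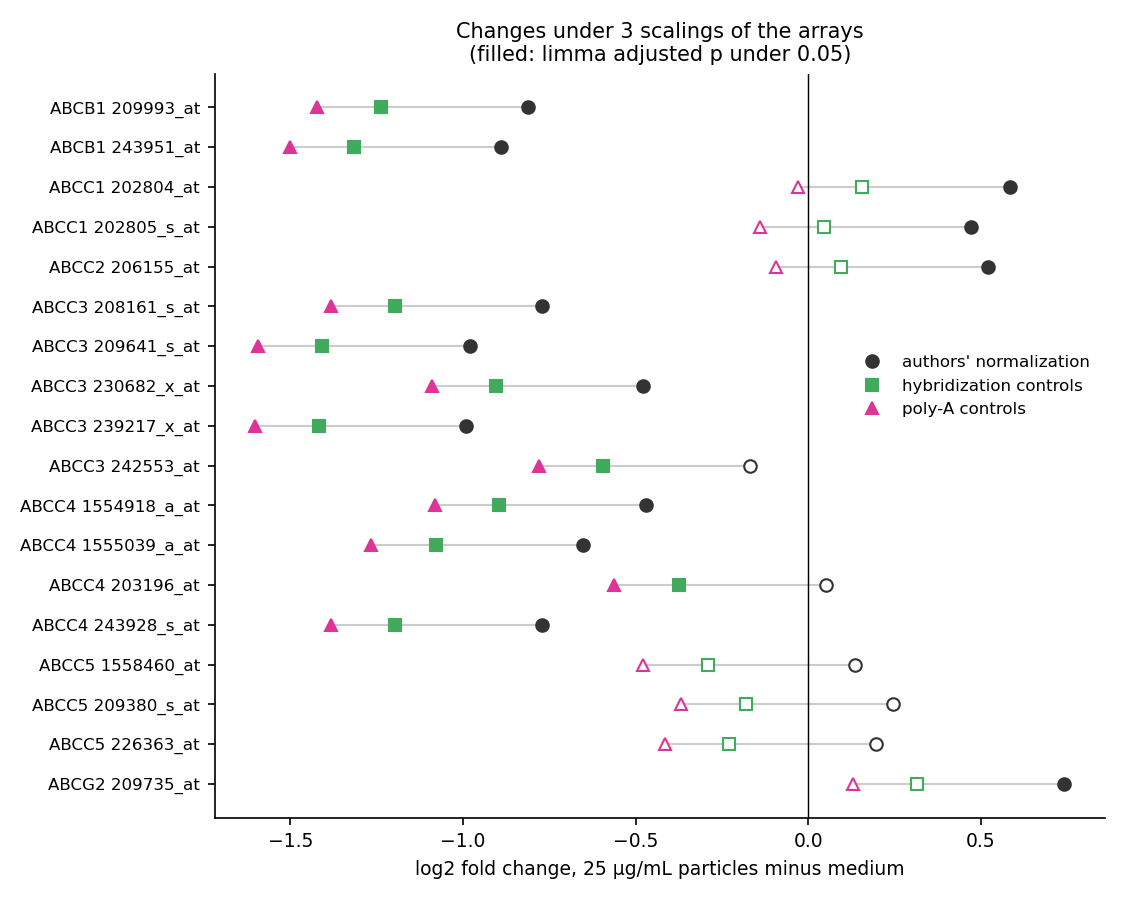
Log2 fold change of 25 µg/mL against medium (horizontal axis) for each of the 18 probe sets with the authors' normalization (circles), scaled on hybridization controls (squares) and scaled on poly-A controls (triangles). Filled symbols had a limma adjusted p under 0.05. The ABCB1 values stay lower under all 3 scalings, and the 4 higher calls of ABCC1, ABCC2 and ABCG2 are open under both control scalings. Both control scalings lower every probe set at 25 µg/mL, and 59.1% (hybridization) and 66.2% (poly-A) of all probe sets were then called lower.

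The difference between a pair of probe sets on the same array does not depend on how arrays are scaled. The pairs below were chosen after their values were seen and carry no test, and the level of 1 probe set is not comparable with that of another, so only the change between groups is read. ABCC2 minus ABCB1 209993_at averaged 0.16 ± 0.38 (SD, n = 3) in medium, 0.00 ± 0.22 at 2.5 µg/mL, 0.21 ± 0.22 with ions and 1.49 ± 0.17 at 25 µg/mL, so the change from medium was 1.33. ABCG2 minus ABCB1 went from -1.81 ± 0.42 in medium to -0.25 ± 0.21 at 25 µg/mL, a change of 1.55. For ABCC1 202804_at minus ABCC3 208161_s_at the values were 0.45 ± 0.20 and 1.80 ± 0.21, a change of 1.35. In each of these pairs the 3 arrays at 25 µg/mL lay above the other 9. Within ABCC4, 203196_at minus 1554918_a_at went from 1.23 ± 0.08 to 1.75 ± 0.06, a change of 0.52, with 2.5 µg/mL at 1.45 ± 0.14 and ions at 1.40 ± 0.23 between them.

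**Figure D4:**
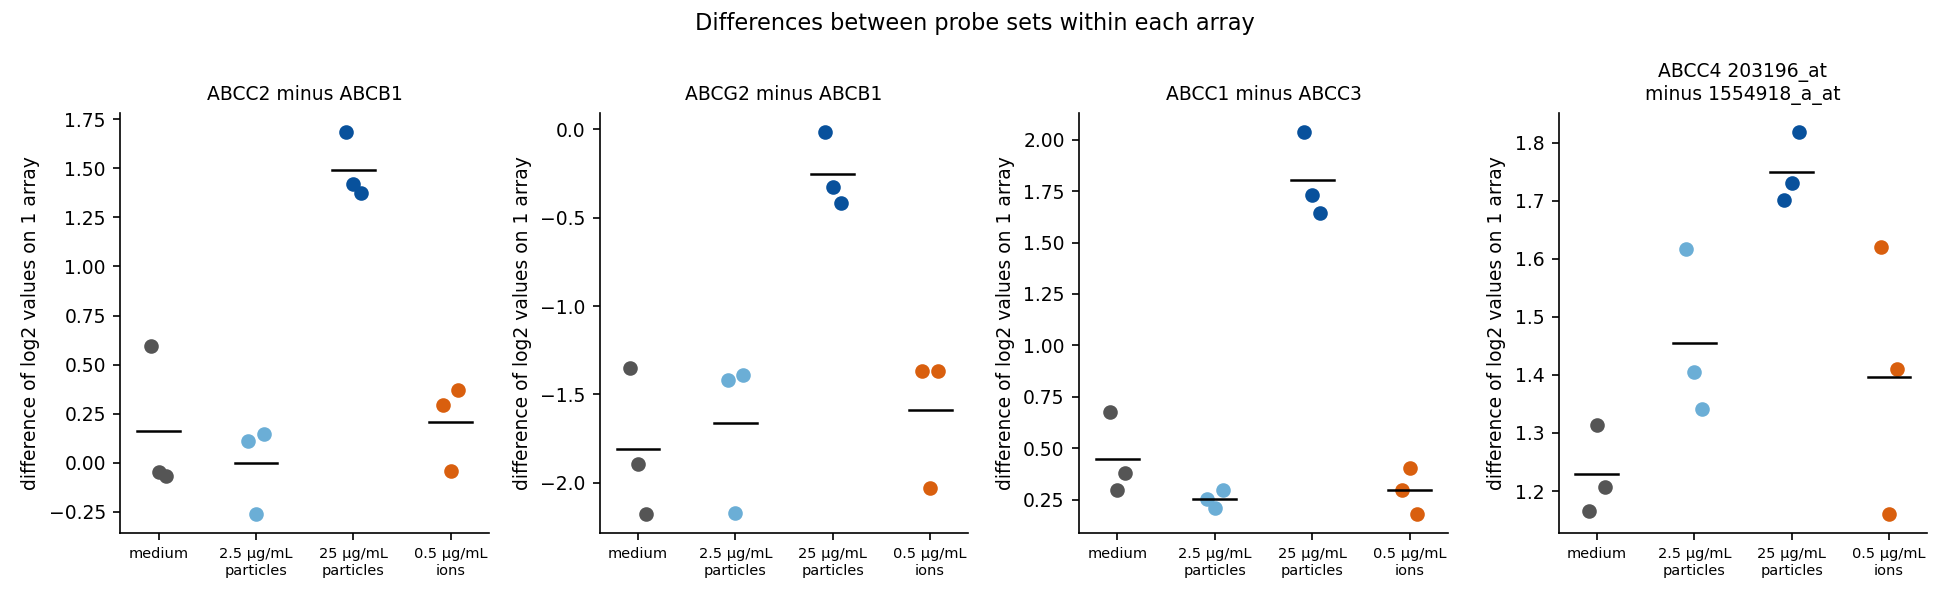
Difference of the log2 values of paired probe sets on the same array (vertical axis, scales differ) in each of the 4 groups. Points are single arrays and bars are group means. Of the 4 pairs, ABCC2 minus ABCB1 moved from a mean of 0.16 in medium to 1.49 at 25 µg/mL, and such differences do not change with the scaling of arrays.

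Other genes of the same transport and detoxification system were taken from lists, with the brightest 1-symbol probe set standing for a gene. On that basis 30.7% of 19775 genes were called at 25 µg/mL against medium (12.8% higher, 17.9% lower) and the median change was -0.01. Of the 7 pump genes with a value, ABCC1, ABCC2 and ABCG2 were higher and ABCB1 and ABCC3 lower (71.4%), with a median of 0.25. None of the 5 lists had a gene that passed at 2.5 µg/mL or with ions, where 0% of the 19775 genes passed.

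Of 37 measured genes among 40 other members of the ABC superfamily, 4 were higher and 8 lower (32.4%, median -0.04). The 3 largest changes were falls of ABCA1, the cholesterol and phospholipid exporter (-1.65 ± 0.12, limma, adjusted p = 1.57e-07), ABCC9, the regulatory subunit of ATP-sensitive potassium channels (-1.44), and ABCA5, a lysosomal lipid transporter (-1.38). Some dimmer probe sets of these genes did not pass: 216066_at and 1570279_at of ABCA1, 241705_at of ABCA5, and 208562_s_at, 235578_at and 208462_s_at of ABCC9. The 4 higher genes, named after their values were seen, were ABCE1 (0.42), ABCF1 (0.56), ABCF2 (0.57) and ABCF3 (0.33). These are ABC proteins without membrane domains that act in ribosome recycling and translation, not in transport. They stood at -0.20, -0.05, -0.05 and -0.29 under poly-A scaling and at -0.01, 0.13, 0.14 and -0.10 under hybridization scaling, where none passed.

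Of 17 transcription factors and sensors known to control efflux pumps, 12 had a value, 1 was higher and 5 lower (50%, median -0.02). ARNT, the partner of the aryl hydrocarbon receptor, changed by -1.46 ± 0.10 with its brightest probe set (limma, adjusted p = 4.44e-08), but 231016_s_at, another of its 7 probe sets, was higher (0.35, adjusted p = 0.0273). NR3C1, the glucocorticoid receptor, changed by -0.84, and PPARA, the fatty acid receptor, by -0.83. The 1 higher gene was KEAP1, the sensor that holds back the antioxidant factor NFE2L2, at 0.74 (limma, adjusted p = 2e-05), which stood at 0.13 and 0.32 without passing under the poly-A and hybridization scalings. The brightest NFE2L2 probe set read 0.27 (adjusted p = 0.0565) and AHR, the aryl hydrocarbon receptor, 0.19 (adjusted p = 0.452). A dimmer NFE2L2 probe set, 1567013_at, passed at 0.50 (limma, adjusted p = 0.00835).

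Among 7 scaffold and linker proteins of the brush border, which hold apical transporters at the membrane, 0 were higher and 3 lower (42.9%, median -0.11). PDZK1, a scaffold that binds the tail of several apical transporters, changed by -1.80 ± 0.18 (limma, adjusted p = 2.78e-06), NHERF4 by -0.59 and NHERF1 by -0.53. Dimmer probe sets of EZR (ezrin) and RDX (radixin), which link the membrane to actin, read higher in the authors' normalization: 208622_s_at, 217234_s_at and 208621_s_at of EZR (0.27, 0.64 and 0.52, limma, adjusted p = 0.0344, 0.00195 and 0.00298) and 212398_at and 204969_s_at of RDX (0.72 and 0.55, adjusted p = 0.00232 and 0.0327). Their brightest probe sets, which stand for the genes in the count, did not pass (0.24 and 0.00). Of 22 measured uptake carriers, the counterpart of the pumps, 2 were higher and 7 lower (40.9%, median -0.03). SLC10A1, a bile acid carrier best known from liver, changed by -2.26 ± 0.18 (adjusted p = 2.6e-07), SLCO2B1, an organic anion carrier of the intestine, by -1.41, and SLCO4C1 by -1.05.

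Of 29 measured genes of conjugation and glutathione synthesis, which make substrates of the ABCC pumps and ABCG2, 5 were higher and 9 lower (48.3%, median -0.19). UGT2A3, a glucuronosyltransferase, changed by -2.28 ± 0.15 (limma, adjusted p = 3.97e-08) and SULT1C2, a sulfotransferase, by -1.42. GCLM, the modifier subunit of the enzyme that starts glutathione synthesis, rose by 2.27 ± 0.09 (4.82-fold, limma, adjusted p = 2.73e-10). It was also higher under the poly-A (1.66) and hybridization (1.84) scalings, the 1 gene of these 5 lists that was. Under those scalings the lists held 30 and 27 lower genes for other ABC members, 7 and 6 for regulators, 5 and 5 for scaffolds, 18 and 18 for uptake carriers and 21 and 21 for conjugation, while 68.5% and 62.1% of all 19775 genes were lower.

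**Figure D5:**
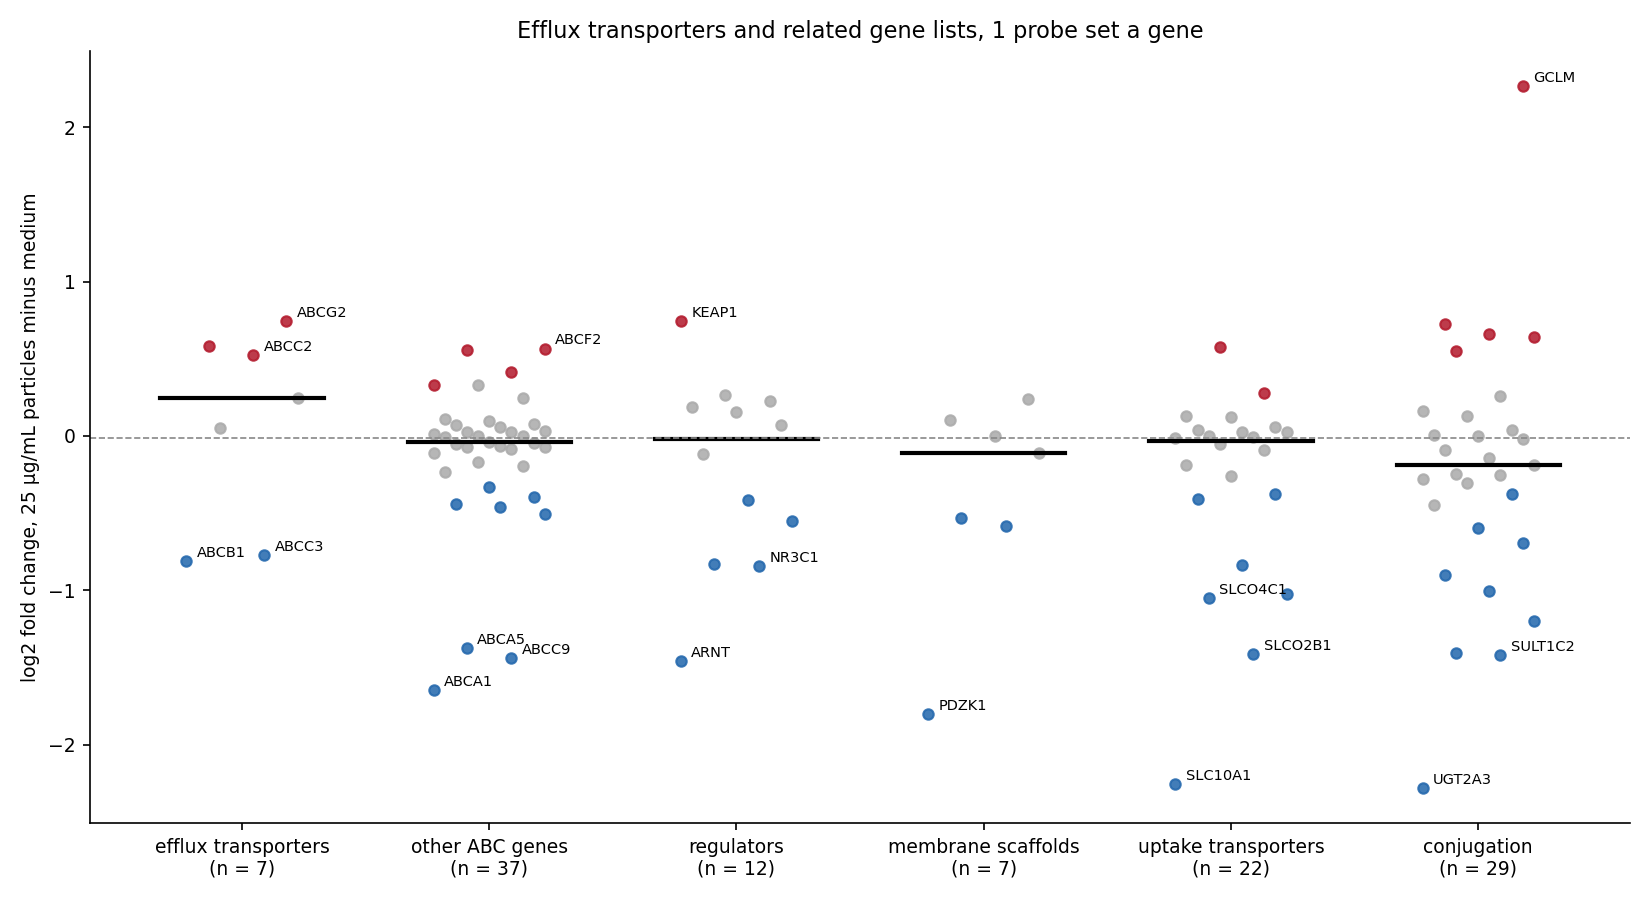
Log2 fold change of 25 µg/mL against medium (vertical axis) in the authors' normalization, with 1 probe set a gene, for the 7 pump genes and 5 lists. Each point is a gene, red and blue mark genes higher or lower at a limma adjusted p under 0.05, bars are list medians and the dashed line is the median of all genes. GCLM at 2.27 is the only red point of the 5 lists besides the pumps that stayed higher under both control scalings.

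The genes whose levels ran most like those of the pumps over the 12 arrays are given as a description, since all of these arrays share the shift at 25 µg/mL. For ABCG2 they were SLC38A2, an amino acid carrier (Pearson r = 0.978), CYP1A1, the classical target of the aryl hydrocarbon receptor (0.978), and PPP2CB, a phosphatase subunit (0.974). At 25 µg/mL against medium, in the authors' normalization, SLC38A2 was 0.56 higher, CYP1A1 1.64 and PPP2CB 0.50 (limma, adjusted p = 0.000534, 1.06e-05 and 0.000597). A link of these genes to ABCG2 was not tested. For ABCB1, which fell most when the brightest probe set stands for a gene, the genes most alike were SMPX, a small muscle protein (0.976), LAMTOR2, a part of the lysosomal Ragulator complex (0.971), and B3GNT8, a glycosyltransferase (0.971). They changed by -0.90, -0.63 and -0.53.

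Over whole arrays, Pearson's r was 0.992 to 0.996 within groups and 0.978 to 0.981 between medium and 25 µg/mL. Of 14 enterocyte markers, 8 lay above 4.75, the median of all values, among them VIL1 (10.38 in medium), CDH17 (10.57) and APOA1 (11.91). SI (3.56), ANPEP (4.13), FABP2 (4.18) and SLC5A1 (4.43), which define mature absorptive cells, lay below it. At 25 µg/mL, in the authors' normalization, 0 of the 14 were higher and 6 lower. Over all 19775 genes 12.8% were higher and 17.9% lower, which also applies to the lists for other cell types below. The mean over the enterocyte list was 6.54 to 6.68 on medium arrays and 6.23 to 6.26 at 25 µg/mL. The lists for other cell types gave 0 higher and 1 lower of 6 for goblet cells (list mean 4.85 to 4.93 in medium, 4.68 to 4.79 at 25 µg/mL), 0 of 5 for enteroendocrine cells (4.39 to 4.53 and 4.38 to 4.47), 1 higher and 2 lower of 6 for fibroblasts (6.29 to 6.46 and 6.06 to 6.16), 0 higher and 2 lower of 4 for leukocytes (5.85 to 5.96 and 5.20 to 5.64), and 1 higher of 5 for endothelial cells (4.62 to 4.64 and 4.80 to 4.85). Of the leukocyte list PTPRC, which defines leukocytes, was at 3.99 in medium and CD3E at 4.64, while CD14 (5.93) and LYZ (8.995) lay above the median, and COL1A1 (9.21) and PDGFRA (8.36) of the fibroblast list were well above the median. All samples are of the Caco-2 line, so the leukocyte, fibroblast and endothelial lists are not read as counts of such cells. For the enterocyte, goblet and enteroendocrine lists, fewer such cells and less RNA per cell cannot be told apart in these bulk samples. The part of all these markers in the pump values was not tested.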

How the data were processed

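Total RNA of 12 Caco-2 samples was measured on Affymetrix arrays, 3 in each of 4 groups. The deposited values are log2 expression per probe set, made by the authors with RMA and Partek, per the submitters' processing notes. Their settings are not known from the sources used here. As the values show, the scale is log2 with no centring per gene and higher means more signal, every array mean was 5.57 and array medians lay between 4.72 and 4.79. RMA scales arrays to each other, so a shift shared by all genes is not visible in these values. No detection calls were used. The sources used here give no scan date or slide, so no batch could be examined. No pair of arrays was identical (0 pairs).

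The 62 control probe sets were left out of the test. The other 54613 were fitted in 1 limma model (limma 3.58.1, R 4.3.3) over all 4 groups with eBayes (degrees of freedom 8 residual, 7.37 prior), two-sided tests and Benjamini-Hochberg adjustment over all probe sets within a comparison. The script was tested on simulated data. A call is an adjusted p under 0.05. Of the probe sets, 41091 had 1 gene symbol, 1801 several and 11721 none listed. Symbols were updated through RefSeq gene IDs for 41037, and 54 kept the older symbol.

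All probe sets of the members are given. In the gene lists the probe set with the highest mean stands for a gene, and up to 3 genes a list are named, those with the largest called change at 25 µg/mL against medium. With the brightest probe set standing for each member gene, the gene with the largest rise was ABCG2 and that with the largest fall ABCB1, and for these the 3 genes with the highest Pearson r are named. The members and lists were chosen with earlier results of these data known. Promoter windows were read from a RefSeq table on GRCh38.p14. Figures were drawn with matplotlib 3.10.9. The alternatives tried were 1 probe set a gene, an average over each gene's probe sets, quantile normalization, median centring, scaling on poly-A or hybridization controls, leaving out dim probe sets (mean under 4.75), an intensity trend, array weights, only the groups compared, an adjusted p under 0.01, and leaving out each array. The number of arrays limits the precision.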

Additional observations from a re-analysis of the deposited data

Results flagged for a closer look

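The control probe sets of the array, which enter none of the comparisons, were higher at 25 µg/mL than in medium. The difference was 0.613 on the log2 scale for the 24 poly-A controls and 0.427 for the 18 hybridization controls, with all 3 arrays at 25 µg/mL above every medium array in both. With 3 against 3 arrays the exact two-sided permutation p was 0.1, the smallest this design can give. The values bear on the direction of ABCC1, ABCC2 and ABCG2, whose rises did not pass the test under either control scaling. The cause was not tested.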

How the results depend on the processing

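The count of member probe sets called at 25 µg/mL against medium was 13 and stayed between 11 and 14 under the settings that keep all 18 probe sets (17 without dim ones), and between 12 and 13 when arrays were left out in turn. Against 2.5 µg/mL it was 12, with 10 to 14 under those settings and 10 to 12 with an array left out. Against ions it was 12, with 10 to 13 and 10 to 12. The totals hide the split: under the poly-A and hybridization scalings 0 members were higher in all 3 comparisons. With 1 probe set a gene, or an average over each gene's probe sets, 6 of 7 genes were called in each of these 3 comparisons, where 30.8% to 34% of all genes were. As such an average ABCC4 was called at -0.46. The comparisons of 2.5 µg/mL and ions with medium and with each other gave 0 members under all settings run.

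Under scaling on the poly-A controls the calls for ABCC1 202804_at (-0.029), ABCC1 202805_s_at (-0.14) and ABCC2 206155_at (-0.092) turned sign against medium, by construction of a scale on controls that were higher at 25 µg/mL. The signs of all 6 higher calls turned likewise against 2.5 µg/mL (ABCC1 202804_at -0.16, ABCC1 202805_s_at -0.196, ABCC2 -0.021, ABCG2 -0.109, ABCC5 1558460_at -0.314, ABCC5 209380_s_at -0.461) and against ions (-0.074, -0.05, -0.144, -0.097, -0.433 and -0.489, the last passing as lower). Hybridization scaling turned ABCC5 209380_s_at against 2.5 µg/mL (-0.059) and ions (-0.137) and 1558460_at against ions (-0.08). These per-member values against the other treated groups were added after seeing the data. ABCC5 209380_s_at passed against medium with 1 probe set a gene (adjusted p = 0.0329), quantile normalization (0.0439), without dim probe sets (0.0233), with an intensity trend (0.0319) and with array weights (0.0345). At an adjusted p under 0.01 ABCC4 243928_s_at was not called. No paired analysis was possible because the labels give no replicate numbers that groups share. Without detection calls, the dim ABCC4 243928_s_at has no stated background.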
